A study of Danio rerio with 10 samples.

Results

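The expression of 7 genes of myelinating glia was followed across the libraries of the zebrafish ciliopathy mutant *rpgrip1l*-/- and wild type (WT). The genes were *mbpa* (ENSDARG00000036186), *mbpb* (ENSDARG00000089413), *mpz* (ENSDARG00000038609), *plp1b* (ENSDARG00000011929), *cldnk* (ENSDARG00000042357), *sox10* (ENSDARG00000077467) and *olig2* (ENSDARG00000040946). They were chosen by name as markers of myelinating glia, and all 7 were found by symbol among the 32057 genes counted. RNA was sequenced in 10 libraries, 2 for each of 5 groups, and each library was a pool of 30 to 35 whole embryos. The groups at 2 days post fertilization (dpf) were *rpgrip1l*-/- with a curled-down tail (CDT), *rpgrip1l*-/- with a tail of normal appearance (normal) and WT, and the groups at 5 dpf were *rpgrip1l*-/- and WT. The mutants came from several pairs of homozygous parents and WT from crosses of the AB strain, so the parents differed with the genotype. The labels do not say from which tail class the 5 dpf mutant pools came, and they name no batch, so that age and genotype cannot be told apart from any difference in preparation or sequencing run. Nothing says how the 2 pools of a group were related, and the p-values measure only the spread between these pools.

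Myelin is the compacted membrane that oligodendrocytes in the central nervous system and Schwann cells in peripheral nerves wrap around axons. *mbpa* and *mbpb* encode copies of myelin basic protein, which holds the cytoplasmic faces of the membrane together. *plp1b* encodes a membrane protein of central myelin, and *mpz* encodes myelin protein zero, which in fish is used in central as well as peripheral myelin. *cldnk* encodes a claudin of zebrafish myelinating glia. Upstream of these sheath genes, *olig2* is a transcription factor of the ventral spinal cord progenitors that give motor neurons and oligodendrocytes, and *sox10* is a transcription factor of the neural crest, Schwann cells and the oligodendrocyte lineage. In mammals the gene for myelin basic protein also gives transcripts, named Golli, in cells that make no myelin. Counts per gene do not separate such transcripts. In RNA from whole embryos, fewer cells of a type and less RNA per cell cannot be told apart either.

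Between 9101264 and 17536165 counts per library fell on genes. The counts of *rpgrip1l* ranged from 11 to 36, and the groups overlapped. The mutant transcript is not expected to undergo nonsense-mediated decay, so these counts do not check the labels. Levels are given as CPM, counts scaled to the library total corrected by the TMM method, and they compare a gene between libraries, not genes with each other. Tests are edgeR's quasi-likelihood test, and adjusted p-values are Benjamini-Hochberg values over all genes tested. A gene was called at an adjusted p under 0.05.

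The WT libraries at 2 dpf stood apart from the other 4 libraries of that age in a way that reaches *mbpa*. Of all genes, 22 had at most 2 counts summed over the 4 mutant libraries at 2 dpf and at least 50 CPM in WT at 5 dpf, a rule set after the data were seen. *mbpa* was among them, and the others included genes of digestive enzymes, such as *prss59.1*, *ctrb.1*, *amy2a* and CPA1, and the photoreceptor gene PRPH2. Each of the 21 others was detected in both WT libraries at 2 dpf, at 0.580% to 1.67% of its own level in WT at 5 dpf, with a median of 0.923%. *mbpa* stood at 0.851%, inside that range. Relative to *rpgrip1l*-/- at 5 dpf, the same 21 genes in WT at 2 dpf stood between 0.460% and 4.14%, a wider range. At the shared 0.923%, the level of *mbpa* in WT at 5 dpf corresponds to 1.26 CPM, against 1.17 CPM measured in WT at 2 dpf. The same percentage amounts to 31.2% of the WT level of *plp1b* at 2 dpf, to 5.93% for *cldnk*, 3.93% for *mpz*, 1.15% for *mbpb* and less for *olig2*, with 1.04% for *sox10*. Where this signal came from was not tested.

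**Figure D1:**
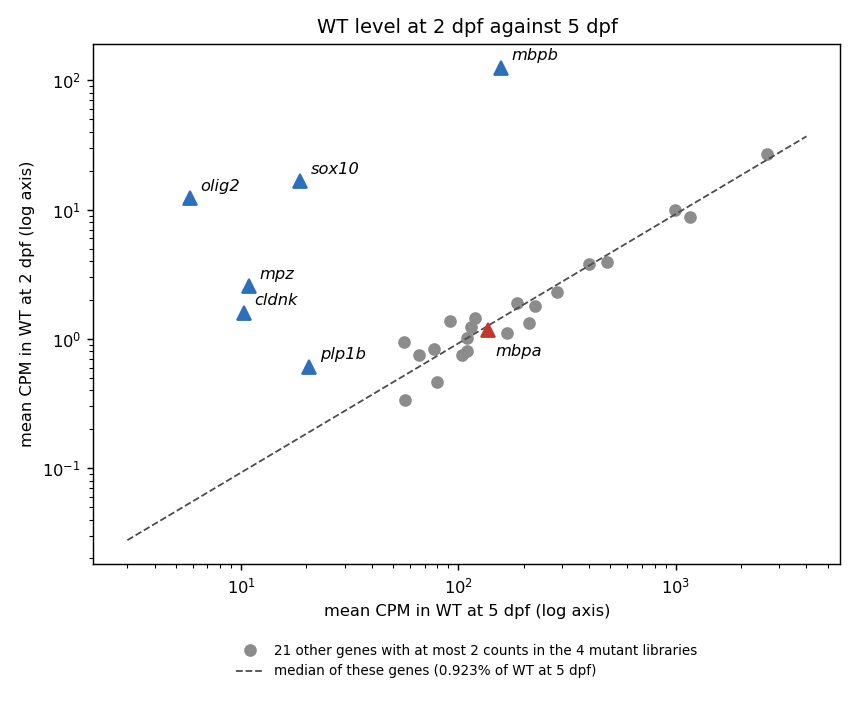
Mean CPM in WT at 2 dpf against mean CPM in WT at 5 dpf, both on log axes, for the 7 genes of myelinating glia (triangles, *mbpa* in red) and 21 other genes (grey points). These 21 had at most 2 counts over the 4 mutant libraries at 2 dpf and at least 50 CPM in WT at 5 dpf. The dashed line marks 0.923% of the WT level at 5 dpf, and *mbpa* lies on it with the grey points, while the other 6 triangles lie above it.

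The first question was when the 7 genes started in WT. *mbpa* had 1.02 and 1.31 CPM (13 and 14 counts) in WT at 2 dpf and 132 and 142 CPM (1989 and 2260 counts) at 5 dpf. It was thus close to the limit of detection at the first age and among the well-counted genes at the second. From the summed counts its level at 5 dpf was 119 times that at 2 dpf, with a 95% exact counting interval of 81.7 to 181, and the fitted log2 fold change was 6.88 (SE 0.16, edgeR adjusted p = 3.89e-22). The WT counts at 2 dpf behind this ratio lie at the level shared by the 21 genes above. With that share taken off the WT counts at 2 dpf, *mbpa* kept 0 and 1 counts and was still called higher at 5 dpf, with a fitted log2 fold change of 11.37 that rests on 1 count and is no bound. Since *mbpa* stood at 0.851%, below the 0.923% taken off, the removal of its counts was fixed in advance. It takes off counts of any source alike and cannot decide where they came from.

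*plp1b* had 0.47 and 0.75 CPM in WT at 2 dpf and 17.6 and 23.7 CPM at 5 dpf. The ages were well separated, with a log2 fold change of 5.09 (SE 0.28, edgeR adjusted p = 4.81e-15). With 2 to 8 counts in each library at 2 dpf, *plp1b* passed the filter on low counts only through the 5 dpf groups. A rise with age was thus built into its being tested. *cldnk* and *mpz* rose less. *cldnk* had 1.88 and 1.31 CPM in WT at 2 dpf and 10.4 and 10.1 CPM at 5 dpf, a log2 fold change of 2.66 (SE 0.24, edgeR adjusted p = 2.46e-10). *mpz* had 3.13 and 1.97 CPM at 2 dpf and 10.6 and 11.2 CPM at 5 dpf, a log2 fold change of 2.07 (SE 0.23, edgeR adjusted p = 1.06e-08). For both genes the 5 dpf libraries lay above those of 2 dpf.

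The other copy of myelin basic protein was well expressed already at 2 dpf. *mbpb* was abundant at both ages, with 123 and 128 CPM in WT at 2 dpf and 150 and 163 CPM at 5 dpf. The libraries of the ages did not overlap, but the log2 fold change was only 0.32 (SE 0.09, edgeR adjusted p = 0.00271).

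The transcription factors showed no onset in this interval. *olig2* had 11.8 and 12.6 CPM in WT at 2 dpf and 6.09 and 5.55 CPM at 5 dpf, and it fell by 1.07 on the log2 scale (SE 0.17, edgeR adjusted p = 5.25e-06). *sox10* had 16.5 and 16.6 CPM at 2 dpf and 17.8 and 19.7 CPM at 5 dpf. Its WT libraries did not overlap between the ages, yet the log2 fold change of 0.18 (SE 0.12) was not past the threshold (edgeR adjusted p = 0.220). In all, 5 of the 7 genes were called higher and 1 lower at 5 dpf in WT, while of the 21016 genes tested 60.8% were called, 31.3% higher and 29.5% lower. Among the 5 was *plp1b*, whose rise was built into its being tested, so it is not read against these shares. A call between these ages is therefore common, and the sizes of the changes, from 0.32 to 6.88 among those that rose, say more than the count. The median log2 fold change was 2.07 over the 7 genes, with *plp1b* included, and 0.03 over all genes tested. These medians are not read against each other. The rise of *plp1b* was built in, and the genes were chosen as markers with earlier results of these data known.

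**Figure D2:**
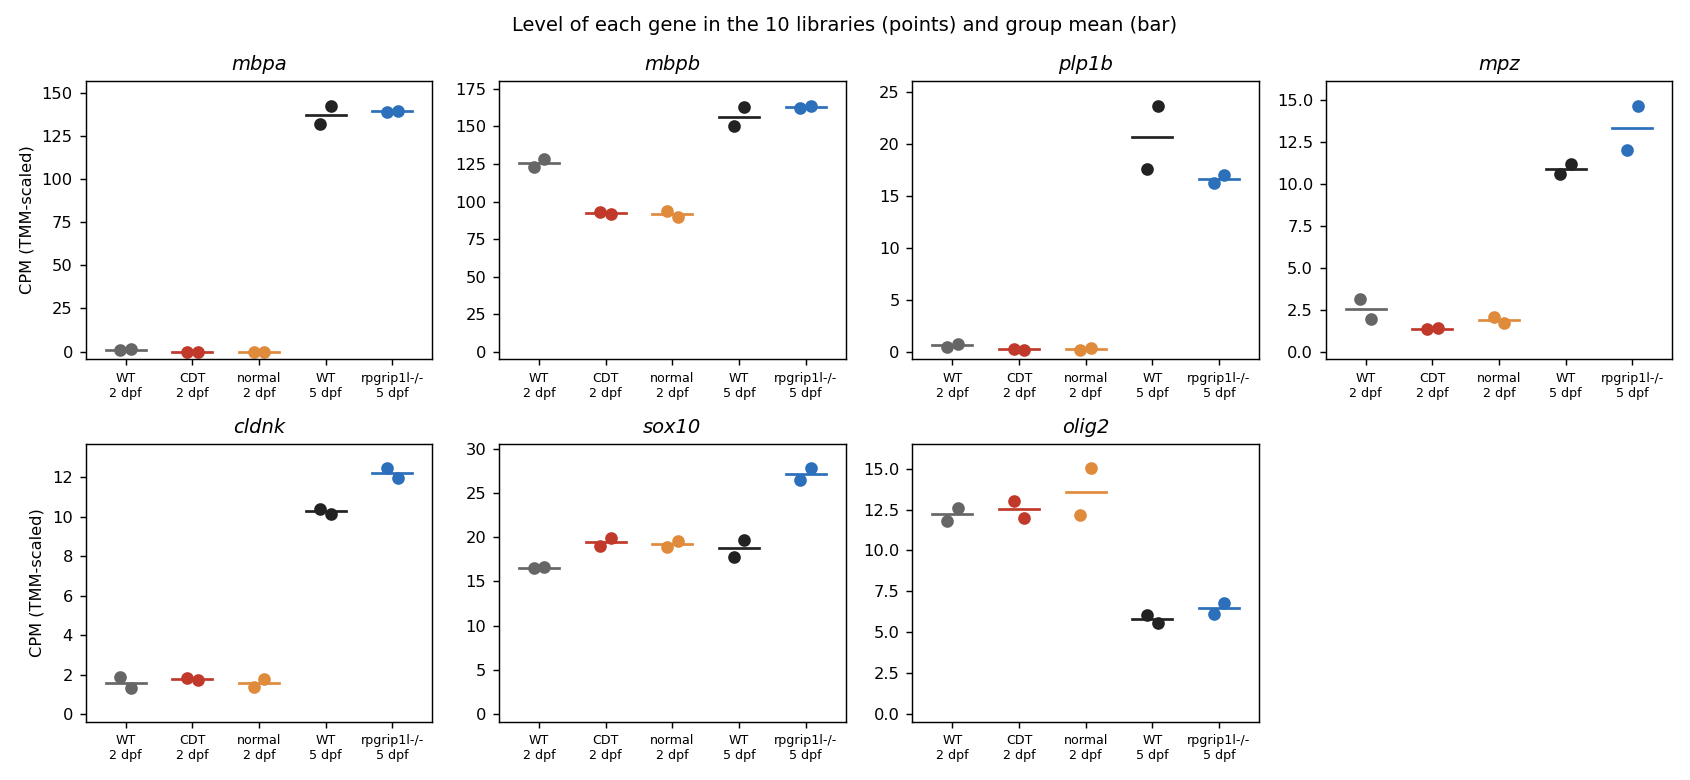
CPM of each of the 7 genes in the 10 libraries (points, 2 per group) with the group mean (bar), on linear axes that differ between panels. *mbpa*, *plp1b*, *mpz* and *cldnk* are low in all 6 libraries at 2 dpf and high in all 4 at 5 dpf, *olig2* shows the reverse, and *mbpb* and *sox10* are well detected throughout.

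The same ages were then compared in the mutant, taking the mean of CDT and normal as the 2 dpf level. *mbpa* had 1 count in the first CDT library and 0 in the second CDT library and in both normal libraries, against 1853 and 1873 counts (139 CPM in each) in *rpgrip1l*-/- at 5 dpf. All 4 mutant pools at 2 dpf were thus at the limit of detection. From the summed counts, 3726 against 1, the level at 5 dpf was 8175 times that at 2 dpf, with a 95% exact counting interval of 1466 to 322962. *plp1b* had 0.29 and 0.19 CPM in CDT and 0.19 and 0.33 CPM in normal, and 16.2 and 17.0 CPM in *rpgrip1l*-/- at 5 dpf. The log2 fold change was 5.97 (SE 0.25, edgeR adjusted p = 5.78e-18), with the limit from the filter given above for WT.

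*mpz* in the mutant had 1.36 and 1.40 CPM in CDT, 2.04 and 1.70 CPM in normal, and 12.003 and 14.7 CPM at 5 dpf, a log2 fold change of 3.06 (SE 0.19, edgeR adjusted p = 6.86e-14). *cldnk* had 1.83 and 1.72 CPM in CDT, 1.39 and 1.77 CPM in normal, and 12.5 and 11.98 CPM at 5 dpf, a log2 fold change of 2.85 (SE 0.18, edgeR adjusted p = 1.58e-13). Neither gene showed any overlap between the ages. *mbpb* rose from 93.3 and 91.9 CPM in CDT and 93.8 and 89.7 CPM in normal to 163 and 164 CPM, by 0.83 on the log2 scale (SE 0.07, edgeR adjusted p = 2.00e-10).

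*olig2* fell in the mutant as in WT, from 13.04 and 12.01 CPM in CDT and 12.2 and 15.01 CPM in normal to 6.15 and 6.77 CPM, a log2 fold change of −1.02 (SE 0.15, edgeR adjusted p = 1.30e-06). *sox10*, with 19.0 and 20.0 CPM in CDT and 18.9 and 19.6 CPM in normal, stood at 26.5 and 27.8 CPM at 5 dpf, above every mutant library at 2 dpf. Its log2 fold change was 0.48 (SE 0.10, edgeR adjusted p = 0.000130). With library size alone in place of TMM, this rise of *sox10* was 0.17 and not called (edgeR adjusted p = 0.162). Relative to the median gene it was 0.48 under both scalings. In the mutant, 6 of the 7 genes were called higher and 1 lower with age, beside 62.7% of all genes tested, 33.1% higher and 29.6% lower. Among the 6 was again *plp1b*, which is not read against these shares.

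**Figure D3:**
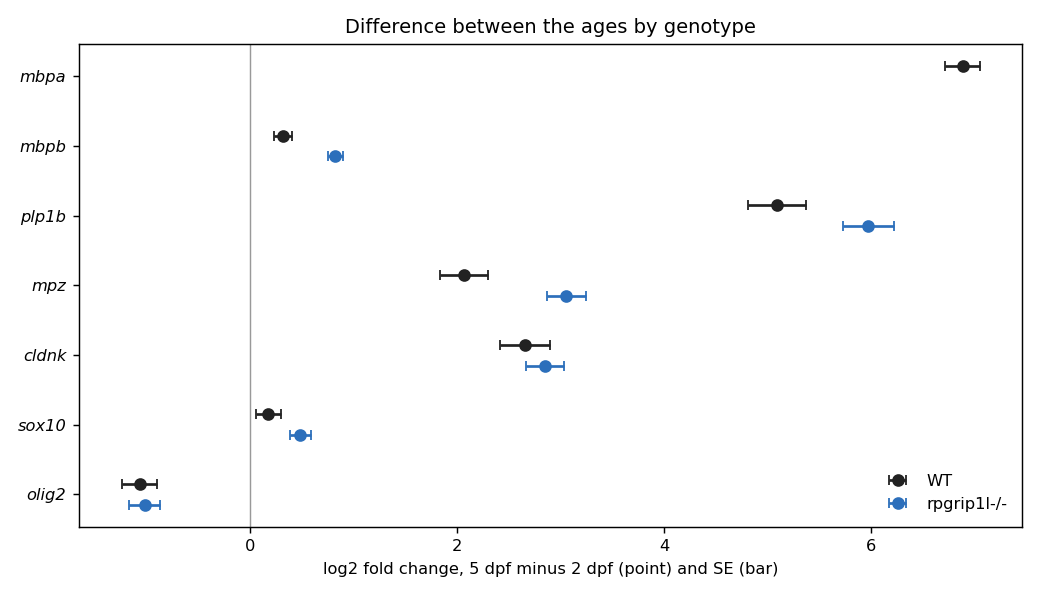
Log2 fold change between 5 dpf and 2 dpf (points) with its standard error (bars) for the 7 genes, in WT (black) and in *rpgrip1l*-/- with CDT and normal averaged (blue). The mutant value of *mbpa* is not drawn because its 2 dpf libraries held 1 count in all. Among the 6 genes drawn for both genotypes, values run from *olig2*, at −1.07 and −1.02, through *sox10* and *mbpb* to *plp1b*, at 5.09 and 5.97, with *mpz* and *cldnk* between, and *mbpa* in WT lies above them at 6.88.

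The balance between *mbpa* and *mbpb* needs no scaling between libraries, so it was taken within each library. At 2 dpf *mbpa* made up 0.821% (Wilson 95% interval 0.481% to 1.40%) and 1.02% (0.606% to 1.70%) of the *mbpa* plus *mbpb* counts in WT, 0.0632% (0.0112% to 0.357%) in the first CDT library and none in the other mutant libraries, where 0 counts allow up to 0.207%, 0.297% and 0.219%. At 5 dpf it made up 46.7% and 46.6% in WT and 46.1% and 46.0% in *rpgrip1l*-/-. The balance thus differed between the ages with no overlap of pools, and at 5 dpf the intervals of all 4 libraries overlapped, from 44.4% to 48.2%. Intervals and limits cover counting error only, and the counting may split or lose reads that fit both copies.

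At 2 dpf the mutants were compared with WT, separately for each tail class. *mbpb* was lower in both classes, with 93.3 and 91.9 CPM in CDT and 93.8 and 89.7 CPM in normal against 123 and 128 CPM in WT. No mutant library reached the WT libraries. The log2 fold change was −0.36 in CDT (SE 0.09, edgeR adjusted p = 0.000605) and −0.38 in normal (SE 0.09, edgeR adjusted p = 0.000393). These sizes were near the median absolute log2 fold change over all genes tested, 0.37 in CDT and 0.38 in normal. The scaling matters here: the 20 most abundant genes held 20.4% and 21.3% of the counts in WT at 2 dpf and 15.9% to 16.5% in the mutants, and with library size alone the median gene was 0.48 and 0.46 higher in CDT and normal than in WT. Under that scaling the values of *mbpb* turned to 0.09 and 0.07 and were not called, which is −0.39 relative to the median gene in both classes, as with TMM.

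*mbpa*, with the 13 and 14 counts in WT given above and 1 count in all 4 mutant libraries, was called lower in CDT (edgeR adjusted p = 5.51e-05) and in normal (edgeR adjusted p = 3.68e-05). It passed the filter on low counts at 2 dpf only through WT, so that a difference was built into its being tested. The summed counts give WT 37.7 times the level of CDT, with a 95% exact counting interval of 6.21 to 1543, and 67.7 times that of both classes pooled (11.2 to 2771). The normal libraries alone held no count. These 27 WT counts are the ones that stood at the level shared by the 21 other genes. With 0.923% of each gene's WT level at 5 dpf taken off the WT counts at 2 dpf, *mbpa* was not tested, an outcome fixed in advance because it stood below that percentage. *mbpb* was then the only member called lower in each class. Without replicate 2 of WT at 2 dpf, and with at least 10 counts asked of every library, *mbpa* was likewise not tested.

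*sox10* was slightly higher in the mutants, with 19.0 and 20.0 CPM in CDT and 18.9 and 19.6 CPM in normal against 16.5 and 16.6 CPM in WT. The groups did not overlap, and the log2 fold change was 0.31 in CDT (SE 0.13, edgeR adjusted p = 0.0497) and 0.29 in normal (SE 0.13, edgeR adjusted p = 0.0728). The CDT call sat at the threshold and was lost with DESeq2, without the filter on low counts, with all 10 libraries in the fit, with the shared 0.923% taken off, and when any library at 2 dpf was left out. *mpz*, whose CDT libraries at 1.36 and 1.40 CPM lay below the WT libraries at 3.13 and 1.97 CPM, had a log2 fold change of −0.83 in CDT (SE 0.36, edgeR adjusted p = 0.0606) and −0.41 in normal (SE 0.36, edgeR adjusted p = 0.388). Neither passed, though CDT did with at least 10 counts asked of every library, with all 10 libraries in the fit and without replicate 2 of WT (lowest edgeR adjusted p = 0.0216). *cldnk* and *olig2* lay between 0.06 and 0.24 in both classes, with adjusted p-values by edgeR from 0.213 to 0.921, and their mutant and WT libraries overlapped.

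*plp1b* was too low to be tested at 2 dpf, with 14 counts in WT, 8 in CDT and 7 in normal. The ratio of WT to CDT was 2.44, with an exact counting interval of 0.956 to 6.72, and that of WT to normal was 2.22 (0.839 to 6.51), and both intervals include 1. Against both classes pooled it was 2.34 (1.05 to 5.20), and 1.63 (0.727 to 3.61) with library size alone, so that the pooled interval excludes 1 only with TMM. These intervals cover counting error only and leave out the spread between pools, so whether they include 1 is no test of the genotypes. Of the 6 genes tested, 1 was called higher and 2 lower in CDT, beside 40.5% of all genes tested, 20.0% higher and 20.4% lower. In normal, 2 were called lower and none higher (3 genes had an unadjusted p under 0.05, and DESeq2 called 2 in all), beside 39.6% of all genes tested, 19.2% higher and 20.4% lower. One of the genes called lower in each class was *mbpa*, whose difference was built in, so it is not read against these shares. Of the 5 other genes, 1 was called higher and 1 lower in CDT, and 1 was called lower in normal.

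Between the tail classes, no gene of the 6 tested was called by edgeR, none had an unadjusted p under 0.05 and DESeq2 called none, beside 0.952% of all genes tested, 0.657% higher and 0.295% lower in CDT. The mean of *mbpb* was 92.6 ± 1.0 CPM (SD, n = 2) in CDT and 91.8 ± 2.9 CPM in normal, and that of *sox10* was 19.5 ± 0.7 and 19.3 ± 0.5 CPM. *olig2* stood at 12.5 ± 0.7 and 13.6 ± 2.0 CPM. In each of these genes the difference of the means was smaller than the larger SD of the classes. *mpz* stood at 1.38 ± 0.03 CPM in CDT and 1.87 ± 0.24 CPM in normal, a gap larger than either SD and without overlap, but its log2 fold change of −0.42 (SE 0.37) was not called (edgeR adjusted p = 0.778).

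At 5 dpf *sox10* was the only member called between the genotypes. It had 26.5 and 27.8 CPM in *rpgrip1l*-/- and 17.8 and 19.7 CPM in WT, without overlap. The log2 fold change was 0.53 (SE 0.12, edgeR adjusted p = 0.0223), beside 3.84% of all genes tested, of which 1.28% were higher and 2.56% lower. DESeq2 did not call it, and edgeR did not when WT replicate 1 or mutant replicate 2 was left out (edgeR adjusted p up to 0.137), with log2 fold changes from 0.46 to 0.61 over the libraries left out.

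Among the sheath genes, *mbpa* and *mbpb* had similar levels in both genotypes at 5 dpf. *mbpa* had 139 CPM in both *rpgrip1l*-/- libraries and 132 and 142 CPM in WT, a log2 fold change of 0.02 (SE 0.10, edgeR adjusted p = 0.942). *mbpb* had 163 and 164 CPM against 150 and 163 CPM, a log2 fold change of 0.06 (SE 0.10, edgeR adjusted p = 0.828). For both genes the libraries of the genotypes overlapped.

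The remaining 4 members were not called. Their libraries did not overlap between the genotypes, which held for 47.7% of all genes tested. *plp1b* had 16.2 and 17.0 CPM in *rpgrip1l*-/- and 17.6 and 23.7 CPM in WT, a log2 fold change of −0.31 (SE 0.15, edgeR adjusted p = 0.303). It was −0.51 without WT replicate 1 and −0.079 without WT replicate 2, and was not called in either fit. *mpz*, *cldnk* and *olig2* had log2 fold changes of 0.29 (SE 0.16), 0.25 (SE 0.15) and 0.15 (SE 0.20), with adjusted p-values by edgeR of 0.365, 0.434 and 0.774. On counts simulated for this comparison with the real means and library sizes, edgeR called 76 of 100 genes changed 2-fold and 97 of 100 changed 4-fold, together with 9 unchanged genes. DESeq2 called 66 changed 2-fold and 87 changed 4-fold. The changed genes were drawn only from genes above a set mean count, so these rates do not hold for low genes. Differences of the sizes seen in these members thus lie below what 2 pools per group were checked for.

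**Figure D4:**
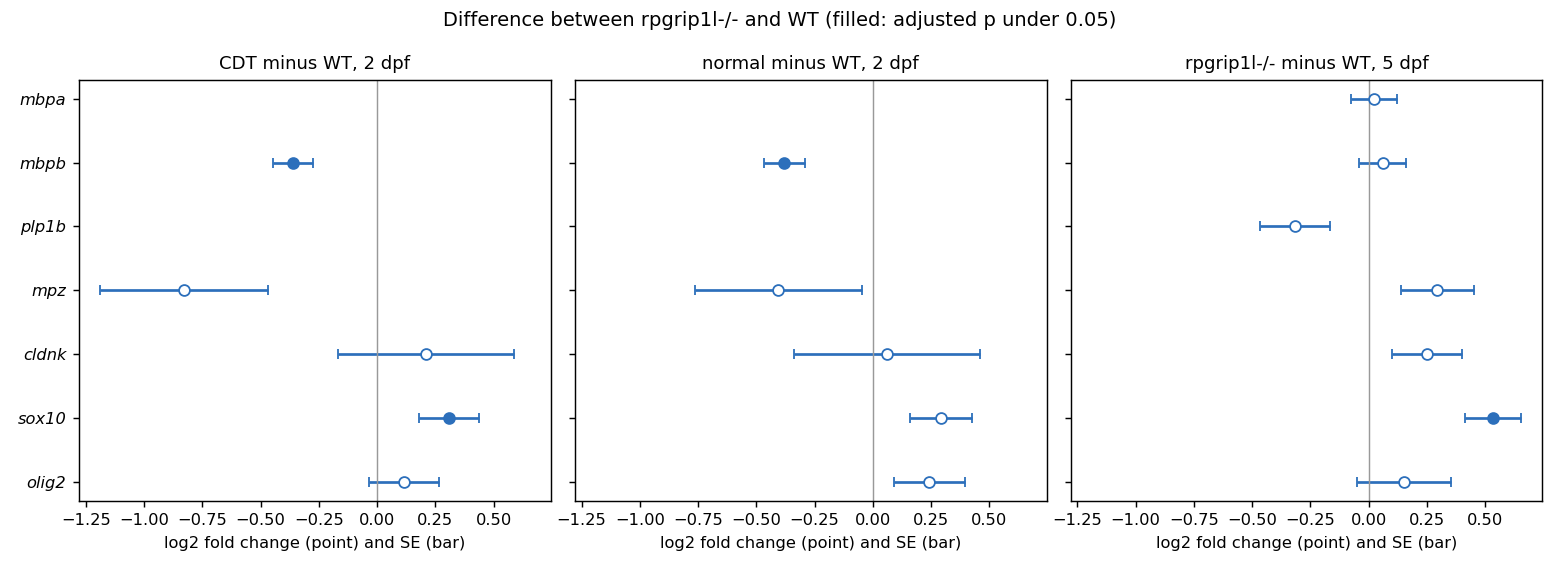
Log2 fold change of *rpgrip1l*-/- against WT (points) with its standard error (bars) for CDT and normal at 2 dpf and for 5 dpf. Filled points had an adjusted p under 0.05, which were *mbpb* in both classes and *sox10* in CDT at 2 dpf and *sox10* at 5 dpf. *plp1b* was not tested at 2 dpf, and *mbpa* is not drawn there because the mutants held 1 count in all.

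The difference between the genotypes was itself tested for a change with age. *mbpb* went from 125.5 ± 3.6 CPM (SD, n = 2) in WT against 92.6 ± 1.0 in CDT and 91.8 ± 2.9 in normal at 2 dpf to 157 ± 9 in WT against 163.3 ± 0.9 in the mutant at 5 dpf. The mutant rise exceeded the WT rise by 0.51 on the log2 scale (SE 0.12, edgeR adjusted p = 0.00243). The median absolute value of this measure over all genes tested was 0.41. For *mpz* the mutant rise exceeded that of WT by 0.99 (SE 0.32, edgeR adjusted p = 0.0251), a call that DESeq2 did not make and that was lost without replicate 1 of WT at 2 dpf (0.60, edgeR adjusted p = 0.341), WT replicate 1 or mutant replicate 2 at 5 dpf, or replicate 2 of normal. For *mbpa* the fitted excess was 5.97 (SE 0.69, edgeR adjusted p = 1.19e-06), a value that rests on 1 count in the mutants at 2 dpf and is no bound. It rests as much on the 27 WT counts discussed above, and with the shared 0.923% taken off it was 1.48 and not called (edgeR adjusted p = 0.490). That percentage takes off nearly all these counts whatever their source, so the lost call was fixed in advance and decides nothing about the difference. The values of *mbpb* and *mpz* were then 0.49 and 0.95 and were called. With library size alone the values of *mbpb* and *mpz* were 0.08 and 0.57 and were not called. The median gene was then at −0.36, and relative to it *mbpb* and *mpz* were 0.44 and 0.93, as with TMM. The other 4 genes had values from 0.05 for *olig2* to 0.88 for *plp1b* and were not called. Thus 3 of 7 genes were called higher and none lower, beside 23.4% of all genes tested, 14.7% higher and 8.74% lower. Among the 3 was *mbpa*, whose value rests on so few counts at 2 dpf that it is not read against these shares. The others were *mbpb* and *mpz*.

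Further genes of the myelin sheath were taken from a list chosen by function. The counts for this and the following lists stand against the shares of all genes called, which were 31.3% higher and 29.5% lower with age in WT, 20.0% and 20.4% in CDT and 19.2% and 20.4% in normal at 2 dpf, and 1.28% and 2.56% at 5 dpf. Of its 7 genes reported here beside the members, 3 were called higher and 2 lower with age in WT. *mag*, for the myelin-associated glycoprotein of the innermost wrap, had 0.31 and 0.38 CPM in WT at 2 dpf and 7.34 and 8.32 CPM at 5 dpf, a log2 fold change of 4.48 (SE 0.38, edgeR adjusted p = 4.86e-11). With 1 to 7 counts in each library at 2 dpf, it passed the filter on low counts only through the 5 dpf groups. A rise was thus built into its being tested, and its call is not read against the share called higher. *zwi*, for a myelin protein of fish, had 0.63 and 0.75 CPM at 2 dpf and 24.2 and 26.2 CPM at 5 dpf, a log2 fold change of 5.19 (SE 0.24, edgeR adjusted p = 8.89e-17). In the mutants at 2 dpf *mag* had 0.09 to 0.46 CPM and *zwi* 0.98 to 1.59 CPM. *mag* was too low to be tested there, and *zwi*, above both WT libraries in every mutant library, was not called in either class.

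*pmp22a*, for a copy of a peripheral myelin protein, fell with age in WT by 0.69 on the log2 scale (SE 0.09, edgeR adjusted p = 2.44e-07). At 5 dpf none of the 7 genes was called between the genotypes by edgeR. *mag* had 11.6 and 11.8 CPM in *rpgrip1l*-/- and 7.34 and 8.32 CPM in WT there, and *zwi* 28.4 and 32.0 CPM against 24.2 and 26.2 CPM. At 2 dpf, of the 6 tested, 1 was higher and 1 lower in CDT and 1 higher and 2 lower in normal. The summed level of the 7 genes, most of it *pmp22a*, *pmp22b* and *cnp*, ranged from 369 to 391 CPM in WT and from 411 to 430.1 CPM in the mutant at 5 dpf.

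Of 12 genes tested from the oligodendrocyte lineage beside the members, 5 were called higher and 5 lower with age in WT. *myrf*, a transcription factor of maturing oligodendrocytes, had 0.78 and 0.84 CPM in WT at 2 dpf and 2.91 and 2.65 CPM at 5 dpf, a log2 fold change of 1.76 (SE 0.38, edgeR adjusted p = 0.000258). It was higher in the mutants than in WT already at 2 dpf, with 3.48 and 3.24 CPM in CDT and 1.86 and 3.15 CPM in normal, at log2 fold changes of 2.11 (SE 0.38, edgeR adjusted p = 1.30e-05) and 1.72 (SE 0.41, edgeR adjusted p = 0.000583). The WT libraries at 2 dpf held only 10 and 9 counts of it. *myrf* therefore passed the filter on low counts at that age only through the mutants, so that a difference was built into its being tested. By these CPM it differed in the opposite direction to *mbpb*.

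*cspg4*, for the NG2 proteoglycan of oligodendrocyte precursors, was likewise higher in CDT and normal than in WT, by 1.71 (SE 0.45, edgeR adjusted p = 0.00176) and 1.40 (SE 0.47, edgeR adjusted p = 0.0147), although 1 normal library lay within the WT range. With 12 and 6 counts in WT at 2 dpf, it too passed the filter there only with the help of the mutants. *nkx2.2b*, a progenitor transcription factor, fell with age in WT by 2.37 on the log2 scale (SE 0.39, edgeR adjusted p = 7.50e-06). At 2 dpf, 4 of the 11 lineage genes tested were higher and 1 lower in CDT, and 4 higher and 1 lower in normal. Among the 4 in each class were *myrf* and *cspg4*, which for the reason given are not read against the shares of all genes. At 5 dpf 1 of 13 was called, the SOX9 gene ENSDARG00000043923, higher by 0.47 (SE 0.11, edgeR adjusted p = 0.0339).

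**Figure D5:**
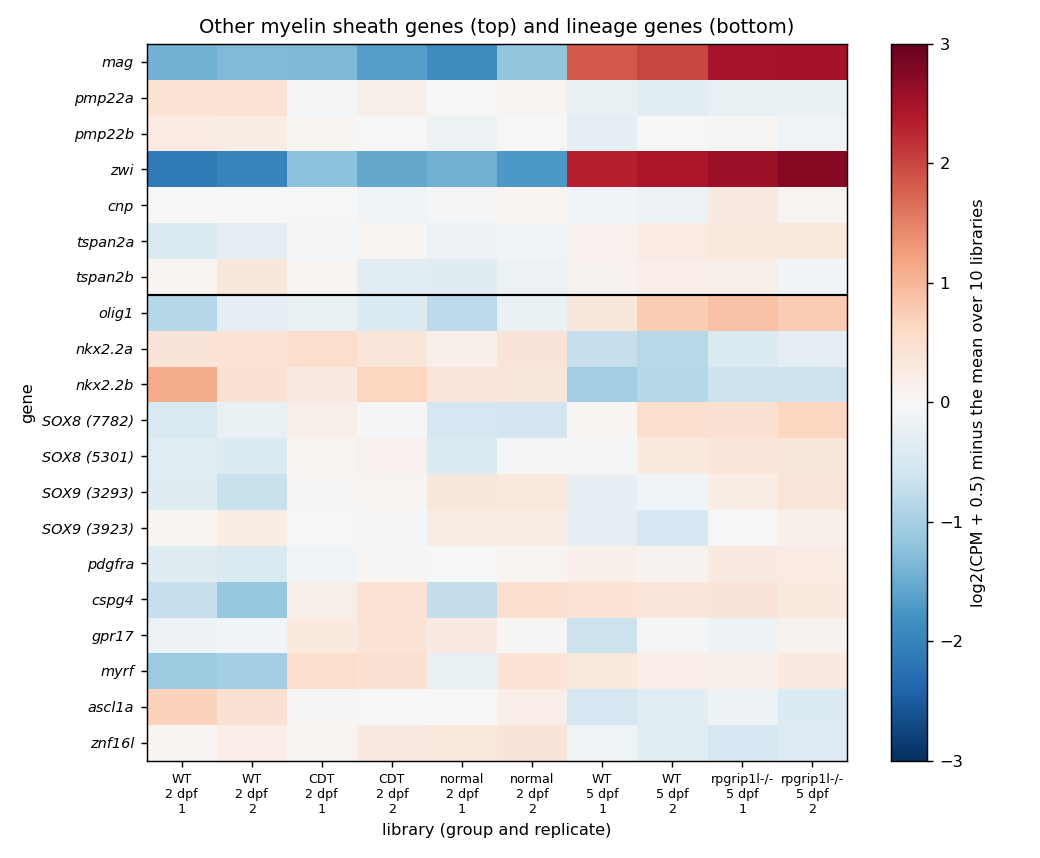
Log2(CPM + 0.5) minus the gene's mean over the 10 libraries, as color, for the other myelin sheath genes (above the line) and lineage genes (below it), with libraries in columns. SOX8 and SOX9 genes carry the end of their identifier. *mag* and *zwi* are low in the 6 libraries at 2 dpf and high in the 4 at 5 dpf, and *myrf* is lowest in WT at 2 dpf.

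Since *sox10* also marks the neural crest, and *olig2* motor neuron progenitors, lists for these cells were read beside them. Of 9 Schwann cell and neural crest genes other than *sox10*, 1 was called at 5 dpf, *tfap2a*, a neural crest transcription factor, which was higher in *rpgrip1l*-/- by 0.42 (SE 0.10, edgeR adjusted p = 0.0373). The summed level of the list at 5 dpf ranged from 184 to 185 CPM in the mutant and from 160 to 162 CPM in WT, but its genes did not all differ in 1 direction. Of the 9 genes, 5 had log2 fold changes above 0 and 4 below, the lowest being *erbb3b*, for a receptor that Schwann cells need, at −0.49 (SE 0.15, edgeR adjusted p = 0.0873). The part of these cells in the difference of *sox10* was not tested.

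Of 6 pigment cell genes, which in whole embryos cannot be assigned to crest derivatives alone, 1 was called lower and none higher at 5 dpf. This was *tyr* at −0.84 (SE 0.17, edgeR adjusted p = 0.0108). At 2 dpf 5 were higher and none lower in each class, among them *tyr* by 0.76 in CDT (SE 0.12, edgeR adjusted p = 7.57e-07). Another of the 5 in each class was *ltk*, with 11 and 3 counts in WT at 2 dpf. It passed the filter on low counts there only through the mutants and is not read against the shares of all genes. With age in WT, 4 of the 9 Schwann cell and neural crest genes were called higher and 3 lower. *egr2b* and *adgrg6*, both needed for Schwann cell myelination, rose by 3.15 (SE 0.49, edgeR adjusted p = 3.03e-06) and 2.17 (SE 0.21, edgeR adjusted p = 6.19e-10), while *pou3f1*, a transcription factor of Schwann cells before they myelinate that is used in neurons too, fell by 1.79 on the log2 scale (SE 0.10, edgeR adjusted p = 4.01e-15). *egr2b* was too low to be tested at 2 dpf, so its call with age is not read against the share called higher. Of the 8 genes of this list tested at 2 dpf, 3 were higher and 0 lower in each mutant class. *adgrg6* was among them, higher by 0.69 in CDT (SE 0.25, edgeR adjusted p = 0.0208) and by 1.02 in normal (SE 0.25, edgeR adjusted p = 0.000783). Of 5 motor neuron genes beside *olig2*, 3 fell with age in WT and 1 rose. Among the 3 was *mnx2b*, which was too low to be tested at 5 dpf. A fall was thus built into its being tested, and its call is not read against the share called lower. At 5 dpf *chata*, for choline acetyltransferase, was lower in *rpgrip1l*-/- by 0.86 on the log2 scale (SE 0.21, edgeR adjusted p = 0.0328).

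Lists for other cells of the nervous system were read in the same way. Of 13 neuron genes, 9 were higher and 2 lower with age in WT, and 2, *elavl3* and *sv2a*, were higher in *rpgrip1l*-/- at 5 dpf, by 0.49 (SE 0.11, edgeR adjusted p = 0.0173) and 0.47 (SE 0.11, edgeR adjusted p = 0.0329). At 2 dpf 5 neuron genes were higher in CDT and 5 in normal, with 1 and 2 lower. Of 7 genes of nodes and paranodes, the axonal domains beside the myelin segments, 3 rose and 2 fell with age in WT, 5 were higher and 1 lower in each mutant class at 2 dpf, and none of the 6 tested at 5 dpf was called by edgeR.

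Of 5 radial glia and astroglia genes, 2 rose and 1 fell with age in WT, none was called at 5 dpf by edgeR, and at 2 dpf 2 were lower in CDT and 3 in normal, with none higher. Of 4 microglia and macrophage genes, 2 rose and 1 fell with age in WT, none was called at 5 dpf by edgeR, and at 2 dpf 1 was higher and 1 lower in CDT and 1 higher and 2 lower in normal. Of 14 enzymes for myelin lipids and cholesterol, 9 rose and 4 fell with age in WT, with *msmo1*, of cholesterol synthesis, rising by 2.24 (SE 0.17, edgeR adjusted p = 6.85e-12), and at 2 dpf 4 were higher in CDT, 3 were higher in normal and 2 were lower in normal. At 5 dpf *fdps*, also of that pathway, was higher in *rpgrip1l*-/- by 0.46 (SE 0.11, edgeR adjusted p = 0.0244). The GAL3ST1 gene ENSDARG00000078245, for a sulfatide-making enzyme, was lower by 0.99 on the log2 scale (SE 0.25, edgeR adjusted p = 0.0359). The other GAL3ST1 gene, ENSDARG00000062711, had a log2 fold change of −0.22 (SE 0.19) there and was not called (edgeR adjusted p = 0.615). Each of the 8 genes named here as called at 5 dpf from these lists lost its call when at least 1 library of that age was left out, with adjusted p-values by edgeR up to 0.220.

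For each member, the 3 named genes with the nearest profile over the 10 libraries were found, by the distance between log2(CPM + 0.5) values centred on each gene's mean. Nearest to *mbpa* were the cone transducin gene GNAT2 (distance 0.28), ANPEP (0.70) and *tcnba* (0.83). ANPEP and *tcnba* were among the 21 genes described above, but both choices used the levels in these same libraries, so this is no separate result. Nearest to *plp1b* was *cyp2aa12* (0.48), to *cldnk* the peptide transporter gene SLC15A2 (0.33) and to *mpz* the amino acid transporter gene SLC7A10 (0.58). None of the nearest genes named here is a gene of the myelin lists.

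Nearest to *mbpb* was NUDCD3 (0.18), with 54.6 CPM in WT, 37.3 CPM in CDT and 39.1 CPM in normal at 2 dpf and 67.4 CPM in WT at 5 dpf. Like *mbpb*, it had a lower mean in both mutant classes than in WT at 2 dpf, which its choice by profile built in. Nearest to *sox10* was KLF6 (0.23) and to *olig2* DHX32 (0.20).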

How the data were processed

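Poly(A) RNA of pooled whole embryos was sequenced as pairs of 150 bp reads. Per the authors, Trim Galore 0.4.4 trimmed the reads, STAR 2.7.3a placed them on the GRCz11 genome and HTSeq 0.12.3 summed them by gene. The unit of the deposited files is raw counts. The 5 counters of reads on no single gene were left out, and 42.5% to 44.3% of reads fell on genes. The deposited comparisons of the authors and gene positions were not used here.

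Counts were tested with edgeR 4.0.16 in R 4.3.3 (TMM scaling, filter on low counts by group, quasi-likelihood test, two-sided, Benjamini-Hochberg adjustment). The 6 libraries at 2 dpf and the 4 at 5 dpf were fitted separately (19636 and 20071 genes), and comparisons of ages used all 10 libraries (21016 genes). With 2 libraries per group, few degrees of freedom are left for the spread. Replicates differed by more than counting noise (chi-square per degree of freedom 2.71 to 7.28), and none was a copy. Alternatives were DESeq2 1.42.0, other scalings and filters, other sets of libraries, a replicate term and each library left out. On simulated counts for the comparison of CDT with WT, edgeR called 88 of 100 genes changed 2-fold, 98 of 100 changed 4-fold and 8 unchanged genes. DESeq2 called 75 changed 2-fold and 93 changed 4-fold. The changed genes were again drawn only from genes above a set mean count.

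The 7 members and the 10 lists were chosen with earlier results of these data known. Named beside the members are the 3 nearest genes of *mbpa* and the nearest gene of each other member. Per list, up to 3 genes with the largest change past the threshold with age in WT and between genotypes at 5 dpf are named. *erbb3b*, the GAL3ST1 gene ENSDARG00000062711 and the genes of the shared percentage were named after their values were seen. Names shared by several identifiers stayed out unless a list held as many copies. Certain genes are not reported here and are left out of the counts of members and lists.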

Additional observations from a re-analysis of the deposited data

Results flagged for a closer look

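For 3 genes, the test of a change with age in the difference between *rpgrip1l*-/- and WT was past the threshold. The values are the log2 rise in the mutant minus that in WT. For *mbpa* it was 5.97 (edgeR adjusted p = 1.19e-06). Its WT libraries at 2 dpf had 13 and 14 counts, at the percentage shared by 21 other genes. Those genes were chosen as nearly absent from the mutants at 2 dpf and high in WT at 5 dpf. With that shared percentage taken off, the value of *mbpa* was 1.48 and not called (edgeR adjusted p = 0.490). Taking that percentage off removes nearly all these WT counts whatever their source, so that lost call was fixed in advance. For *mbpb* the value was 0.51 (edgeR adjusted p = 0.00243) and for *mpz* 0.99 (edgeR adjusted p = 0.0251). With library size alone *mbpb* and *mpz* were at 0.08 and 0.57 and not called. Relative to the median gene they were then 0.44 and 0.93, as with TMM. The call of *mpz* was also lost with DESeq2 and without some single libraries. In *mbpb* every mutant library lay below every WT library at 2 dpf, and at 5 dpf the genotypes overlapped.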

How the results depend on the processing

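Of 673 values of single members under alternatives, 621 kept their direction and their side of the threshold, 22 lost a call, 8 gained a call and 22 changed sign, and the cause was not tested unless named. With library size alone, which moves the median gene between WT and mutants at 2 dpf, *mbpb* was 0.090 in CDT and 0.071 in normal and *mpz* 0.042 in normal. Under that scaling, 2 members were called higher and 1 lower in CDT, 2 higher and 1 lower in normal, and 1 higher for the change of the genotype difference with age, where *cldnk* was −0.23, *olig2* −0.37 and *sox10* −0.12. With upper quartile scaling *olig2* was −0.048 there, and 1 member was called higher in normal. With at least 10 counts in every library, by which fewer members are tested, 3 were called higher with age in WT, and 1 was higher and 1 lower in normal. In CDT, 0 members were called higher with DESeq2, without a filter, with all 10 libraries in the fit and with the shared percentage taken off. Of all genes, between 2376 of 19636 with DESeq2 and 3967 of 26229 without a filter were called higher in these fits. The shared percentage was an alternative added after seeing the data, and it also left 1 member lower in CDT and 1 in normal, beside 3986 and 3956 of 19590 genes. With all 10 libraries in the fit *cldnk* was −0.0095 in normal.

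Between genotypes at 5 dpf, 771 genes were called, against 423 with DESeq2, which called 0 members, and 1231 with all 10 libraries in the fit. Between the tail classes 187 genes were called, against 76 and 81. The replicate numbers were not shown to pair the samples (correlations of deviations from −0.08 to 0.03), and with a replicate block 1212 genes were called at 5 dpf and 298 between the classes.

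With each library left out, the calls ranged from 478 to 1128 genes at 5 dpf, with 0 to 1 members higher, and from 62 to 246 genes between the classes. No member was called higher in CDT in any of these fits (0 to 0), and 1 to 2 were lower in normal. The values of members that crossed 0 ranged from −0.037 to 0.084 for *mbpa* and −0.0028 to 0.13 for *mbpb* at 5 dpf, from −0.014 to 0.51 for *cldnk* in CDT and −0.16 to 0.36 in normal. Between the classes they ranged from −0.021 to 0.052 for *mbpb*, −0.25 to 0.042 for *olig2* and −0.022 to 0.045 for *sox10*. For the change with age they ranged from −0.11 to 0.41 for *cldnk* and −0.023 to 0.13 for *olig2*. None of these genes was called in these comparisons by edgeR. With 27 counts or fewer per group, depth limits what can be said of *mbpa* and *plp1b* at 2 dpf.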
